A study of Mus musculus with 54 samples.

Results

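Heat shock proteins and their cochaperones were followed in cultured mouse microglia, immune cells that live in the brain, that had taken up alpha-synuclein (aSyn), a neuronal protein that aggregates in Parkinson's disease. The 10 genes were taken by symbol from the deposited count table: Hspa1a, Hspa1b, Hspa8, Hsp90aa1, Hsp90ab1, Hsph1, Dnajb1, Bag3, Hspe1 and Hspd1. All 10 of 10 were among the 16632 genes listed and the 13169 genes tested. The microglia came from neonatal C57BL/6 mice and had been shaken off a mixed brain culture in which they grew above astrocytes. The labels name no transgene or deletion in any group. The culture medium of all groups contained supernatant of L929 cells.

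Cells that had received 1 µM Atto-488-labelled aSyn for 14 h are called aSyn-treated where they were collected without co-culture (4 libraries). They are called donors where they were mixed with acceptors, which were microglia stained with a violet dye for 15 min and given no aSyn of their own. Both populations of a co-culture were sorted apart again by flow cytometry and collected at 15, 30, 60, 150 or 300 min. The labels also give a 0 min time for both populations, and the protocol does not say how those cells were handled. There were 4 donor and 4 acceptor libraries at 15, 30 and 150 min, 3 of each at 0 min, 3 donor and 4 acceptor libraries at 60 min, and 4 donor and 3 acceptor libraries at 300 min. Untreated cells gave 6 libraries. The labels do not say that untreated cells were dyed, mixed or sorted, so in a comparison of acceptors with untreated cells these steps cannot be told apart. They give the violet dye for acceptors only, so between donors and acceptors aSyn and the dye cannot be told apart either.

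The replicate number in each title, 1 to 4, is called the experiment here. Experiment 1 was made at passage 3, experiment 2 at passage 1, and experiments 3 and 4 at passage 2. The 2 pairs of untreated libraries with the same number differed less from each other than libraries of different numbers, though by more than sampling noise, and were summed, which gave 4 untreated values and 52 values in all. Library totals lay between 7807389 and 15537493 counts. The Rn45s ribosomal RNA locus took 13.4% to 22.3% of the counts in experiment 4 and 1.42% to 13.5% in experiments 1 to 3, ranges that overlapped slightly. All 12 microglial markers examined were present (among them P2ry12, Tmem119 and Cx3cr1), and their summed level was 2693 to 12970 CPM (counts per 1000000 of the scaled library size). The summed level of 8 astrocyte markers was 7.59 to 138.6 CPM, and that of 8 oligodendrocyte lineage markers was 70.6 to 597.4 CPM. Nothing in the labels says whether the cultures of different experiments came from different animals, so p-values measure the spread between these samples only.

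Chaperones bind unfolded stretches of other proteins and help them fold or keep them from aggregating. HSP70 proteins do so in cycles of ATP binding and hydrolysis that J-domain proteins and nucleotide exchange factors drive, and many of their clients pass on to HSP90. Cells keep constitutive copies at all times and add inducible ones under proteotoxic stress, when heat shock factor 1 binds repeated nGAAn units in the promoters of these genes. In the aSyn field, HSP70 proteins and their J-domain and HSP110 partners are studied because in the test tube they can take aSyn fibrils apart.

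The inducible HSP70 genes Hspa1a and Hspa1b are the pair on which the results turn, so the promoter sequence just before each start is shown. Both lie on chromosome 17 (GRCm38), on the minus strand, Hspa1a at chr17:34969190-34972156 and Hspa1b at chr17:34956436-34959238, and 9951 bases separate them. Sequences were taken from RefSeq (GRCm38.p6) for the 250 bases before the start, 5′ to 3′, and 7 of the 10 genes had an entry. Capitals mark a match to a pair of heat shock factor units facing each other, GAANNTTC, which reads the same on both strands and was found in 6.69% of 32851 windows of this length. The first sequence lies at chr17:34972157-34972406 and the second at chr17:34959239-34959488.

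Hspa1a: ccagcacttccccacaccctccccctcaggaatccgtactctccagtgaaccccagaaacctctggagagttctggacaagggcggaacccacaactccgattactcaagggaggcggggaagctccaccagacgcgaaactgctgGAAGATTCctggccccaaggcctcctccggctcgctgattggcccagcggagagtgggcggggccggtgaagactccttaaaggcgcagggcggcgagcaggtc

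Hspa1b: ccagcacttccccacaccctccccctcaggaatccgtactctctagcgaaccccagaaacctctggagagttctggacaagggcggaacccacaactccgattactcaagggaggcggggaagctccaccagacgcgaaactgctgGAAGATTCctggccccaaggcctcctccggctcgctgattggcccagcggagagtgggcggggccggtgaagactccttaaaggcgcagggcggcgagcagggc

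The windows were identical at 98.8% of the 250 positions, and the match lay 104 to 97 bases before the start in each. The genes can still be told apart in this assay, whose reads come from near the 3′ end of a transcript: of the 451 words of 50 bases in the last 500 bases of each transcript, 0 were shared with the other gene. On the opposite strand Gm20481 overlaps Hspa1a but not its last 500 bases.

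Among the other genes, Hspe1 and Hspd1 are head-to-head neighbours on chromosome 1 whose annotated gene bodies overlap by 112 bases. A run of heat shock factor units lies before the start of Hspe1, on its strand at chr1:55088053-55088082, and inside the annotated body of Hspd1. RefSeq gives Hspd1 2 windows, and the run lies in the one before its inner start, while the window before its outer start held none of the motifs. The run was found as a pair of overlapping matches to a 3-unit form, searched as GAANNTTCNNGAA and its reverse complement TTCNNGAANNTTC, and it also holds both 2-unit forms, GAANNTTC and TTCNNGAA. The 3-unit form was present in 0.466% of windows and the TTCNNGAA form in 7.17%. Hsph1 had the TTCNNGAA form only, on the minus strand at chr5:149636352-149636379. The windows of Dnajb1 and Bag3 held none of these letters, which says nothing of binding elsewhere.

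Hspe1 and Hspd1: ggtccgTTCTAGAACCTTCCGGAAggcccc

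Hsph1: ggtagaatctTTCTCGAAggctcgagaa

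In cells that had taken up aSyn without co-culture, Hspa1a and Hspa1b were higher than in untreated cells, and the other 8 genes did not pass the test. Hspa1a encodes a cytosolic HSP70 protein made under stress. It was measured at 3.73, 3.75, 3.00 and 1.66 CPM in untreated cells of experiments 1 to 4 and at 10.1, 13.4, 14.7 and 22.9 CPM in aSyn-treated cells. Every aSyn-treated value lay above every untreated one, with experiment 4 the lowest among untreated and the highest among treated cells. Hspa1a rose by 2.34 on the log2 scale (SE 0.49, edgeR quasi-likelihood test, adjusted p = 0.00439), a 5.05-fold difference seen in 4 of 4 experiments. In such bulk RNA, more RNA per cell and more cells that express a gene cannot be told apart.

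Hspa1b encodes nearly the same protein. Its level was 2.62, 4.75, 0.942 and 1.96 CPM in untreated cells and 11.7, 15.1, 23.5 and 44.5 CPM in aSyn-treated cells. Again the groups did not overlap, and the lowest untreated value rested on 11 counts. Hspa1b rose 9.03-fold (log2 3.17, SE 0.58, edgeR adjusted p = 0.00121), in 4 of 4 experiments. These 2 of 10 genes compare with 2.5% of all genes called in that comparison, and with 4.5% of all genes whose aSyn-treated values all lay above the untreated ones. With replicate number as the block the same 2 genes passed, when 19.2% of all genes did. The size of the rise differed between experiments, from 1.40 to 3.67 on the log2 scale for Hspa1a and from 1.63 to 4.43 for Hspa1b. Without experiment 3 neither gene passed (edgeR adjusted p = 0.0993 and 0.063), although the differences were then 2.35 and 2.92. In a fit to these 2 groups alone Hspa1b missed the threshold (adjusted p = 0.0539).

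**Figure D1:**
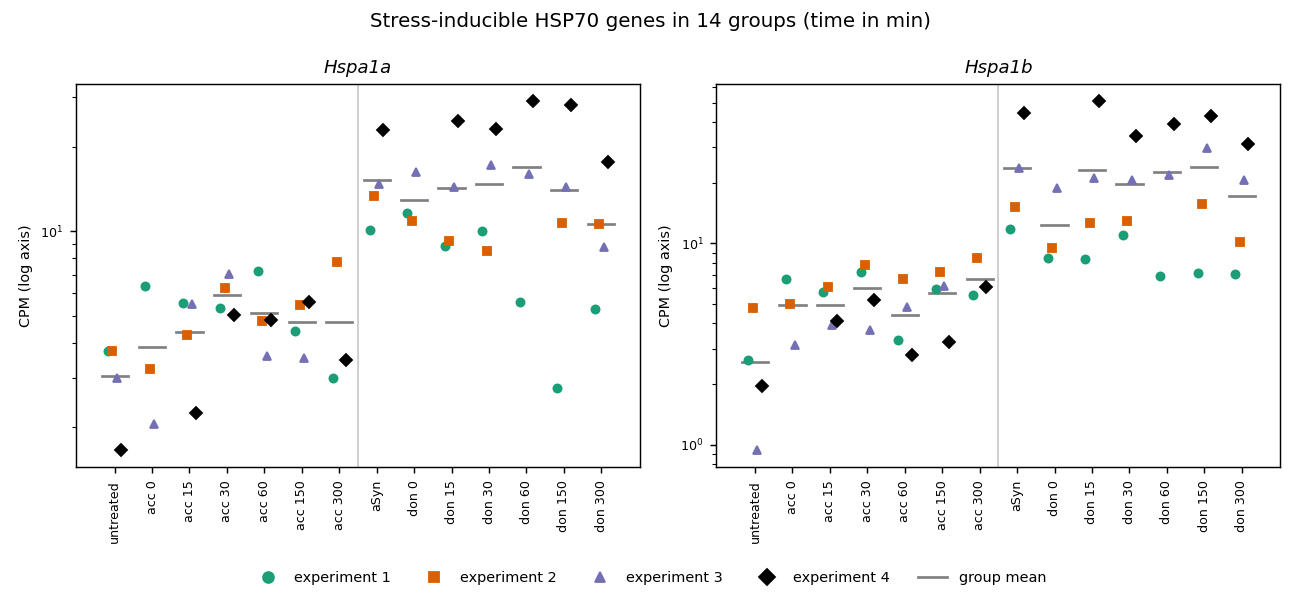
CPM of Hspa1a (left) and Hspa1b (right) on a log axis in the 14 groups, with groups given no aSyn on the left of the grey line and aSyn-carrying groups on the right; symbols stand for the 4 experiments and bars for group means. The group means of Hspa1b lie between 2.57 and 6.68 CPM left of the line and between 12.3 and 23.8 CPM right of it, and experiment 4 (black diamonds) is the highest in all aSyn-carrying groups in which it has a library.

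Hspa8, the constitutive HSP70 of the cytosol, was measured at 653, 922, 881 and 465 CPM in untreated cells and at 681, 895, 975 and 728 CPM in aSyn-treated cells. The groups overlapped widely, and the difference of 0.17 on the log2 scale (SE 0.24) did not pass the test (edgeR adjusted p = 0.772). Hsp90aa1 (chr12:110690605-110702728), the more inducible of the cytosolic HSP90 genes, differed by 0.42 (SE 0.27, edgeR adjusted p = 0.447). Its values were 660, 545, 645 and 687 CPM in untreated and 536, 595, 724 and 1539 CPM in aSyn-treated cells, so that experiment 4 alone stood well above. Hsp90ab1 (chr17:45567775-45573271), the constitutive HSP90, likewise stood highest in aSyn-treated cells of experiment 4, with 1366, 1359, 1094 and 1334 CPM against 1139, 1144, 1352 and 2452 CPM.

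None of the HSP70 partners passed the test. Hsph1 (chr5:149614287-149636376), an HSP110 protein that exchanges nucleotide on HSP70, was at 14.9, 20.9, 19.1 and 20.4 CPM in untreated and 14.6, 14.8, 20.3 and 41.5 CPM in aSyn-treated cells. Dnajb1 (chr8:83608193-83612653), the J-domain protein that hands clients to inducible HSP70, was at 40.9 ± 6.08 CPM (SD, n = 4) in untreated and 43.3 ± 5.16 CPM in aSyn-treated cells. Bag3 (chr7:128523616-128546981), an exchange factor that directs HSP70 clients to autophagy, was at 38.5 ± 5.65 and 44.7 ± 6.46 CPM. The log2 differences were 0.27 for Hsph1, 0.08 for Dnajb1 and 0.22 for Bag3, with standard errors of 0.34, 0.13 and 0.15.

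The mitochondrial chaperonin pair had the smallest differences of the 10 genes. Hspd1 (HSP60, chr1:55077835-55088243), which encloses proteins in the mitochondrial matrix, was at 116.5 ± 18.1 CPM in untreated and 112.9 ± 20.3 CPM in aSyn-treated cells (SD, n = 4). Its lid Hspe1 (HSP10) was at 118.7 ± 20.3 and 118.8 ± 21.1 CPM. The log2 differences were -0.05 (SE 0.20) and 0.002 (SE 0.14). Over all 10 genes the median difference was 0.23 on the log2 scale, against -0.04 over all genes tested.

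**Figure D2:**
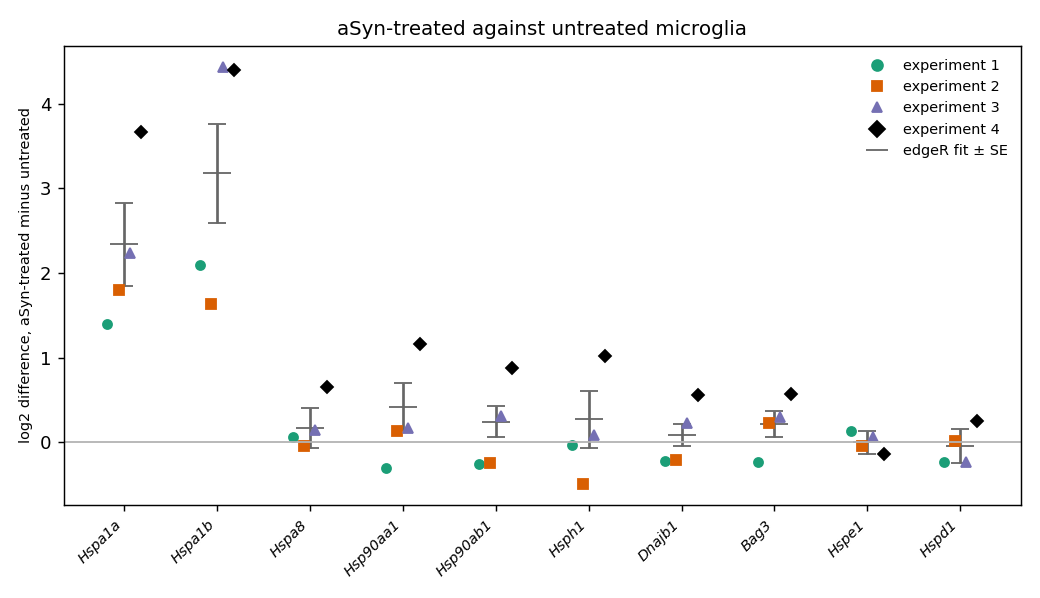
Log2 difference between aSyn-treated and untreated microglia for the 10 genes: symbols are the same-numbered differences in the 4 experiments, grey bars the edgeR estimate with a standard error derived from its F statistic. Hspa1a (2.34) and Hspa1b (3.17) stand above 0 in every experiment, and experiment 4 gives the highest value for Hspa8, both HSP90 genes, Hsph1, Dnajb1, Bag3 and Hspd1.

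Other parts of the chaperone system were read from 9 lists of 100 genes, of which 94 were tested. They cover heat shock factors, other HSP70 and HSP110 proteins, J-domain proteins, exchange factors, HSP90 and HSP70 cochaperones, small heat shock proteins, the TRiC chaperonin with prefoldin, and the chaperones of mitochondria and of the endoplasmic reticulum (ER). Between aSyn-treated and untreated cells edgeR called 0 of the 94 (9 at an unadjusted p under 0.05), and DESeq2 called 3. With the replicate block 14 of 94 passed (14.9%, against 19.2% of all genes), 11 higher and 3 lower. None of the 4 heat shock factor genes tested, the 5 small heat shock proteins or the 14 TRiC and prefoldin genes was among them. The block called 7 of 12 ER chaperones, 6 higher and 1 lower, and their median difference was 0.35 on the log2 scale, against -0.05 over all genes.

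Dnajb9, a J-domain partner of the ER HSP70, was at 29.3 ± 11.4 CPM in aSyn-treated and 14.8 ± 2.33 CPM in untreated cells (SD, n = 4; edgeR adjusted p = 0.00212 with the block, 0.0752 without). Hspa5 (BiP), the ER HSP70 itself, was at 982.6 ± 409.6 and 647 ± 151 CPM (adjusted p = 0.043 with the block, 0.305 without). Calr, Dnajc3, Hyou1 and Dnajc10 were also higher with the block (log2 0.38, 0.42, 0.575 and 0.285, edgeR adjusted p = 0.0273, 0.0293, 0.031 and 0.0347). Serpinh1, a collagen chaperone, was lower (log2 -2.65, adjusted p = 0.0398), at 0.173 CPM against 1.05 CPM on average, so at very few counts. In mitochondria the protease Lonp1 and Hspa9, the matrix HSP70, were higher with the block (log2 0.60 and 0.72, edgeR adjusted p = 0.000454 and 0.00159), unlike Hspd1 and Hspe1, for which no difference passed. The cochaperones Unc45a (0.48) and Fkbp4 (-0.48), the J-domain genes Dnajc9 (-0.72) and Dnajc5 (0.31) and the HSP70 gene Hspa13 (0.43) make up the rest, as log2 differences of the fit with the block. Between donors and acceptors edgeR called 0 of the 94 at each of the 6 times without the block, with 4 to 8 at an unadjusted p under 0.05, and DESeq2 called none. With the block it called 2.13%, 7.45%, 9.57%, 7.45%, 4.26% and 1.06% of them at 0, 15, 30, 60, 150 and 300 min. This was a smaller share than of all genes at 0, 15, 30, 150 and 300 min (4.28%, 9.57%, 10.8%, 5.19% and 1.38%) and a larger one at 60 min (6.7%).

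At 0, 15, 30, 60 and 150 min the block called Hspa5 higher in donors than in acceptors (log2 0.98, 0.85, 0.75, 0.98 and 0.74) and Dnajc9, a J-domain protein of the nucleus, lower (log2 -0.68, -0.56, -0.43, -0.53 and -0.51). At 15 min Dnajb9, Dnajb11, Dnajc10 and Unc45a were also higher in donors and Dnaja4 lower. At 30 min Dnajb11, Dnajc10, Hsp90b1, Ptges3 and Pfdn4 were higher, and Ttc4 and Hsf1, which encodes heat shock factor 1, were lower (Hsf1 log2 -0.45, edgeR adjusted p = 0.0197 with the block, 0.208 without). At 60 min Dnajc10, Hsp90b1, Dnajb4 and Lonp1 were higher and Hspb11 lower, and at 150 min Hyou1 was higher and Pfdn5 lower. Pfdn4 was lower at 300 min. Between acceptors and untreated cells edgeR called 0 of the 94 at each time without the block (0 to 5 at an unadjusted p under 0.05), and DESeq2 called none. With the block it called Dnajc5 higher in acceptors at 30, 60 and 150 min and Hspa9 higher at 60 min, and it called Serpinh1 lower at 60 min and Stub1 and Hspb8 lower at 150 min. These were 1.06%, 3.19% and 3.19% of the 94 at 30, 60 and 150 min, against 3.6%, 4% and 4.78% of all genes. Serpinh1 at 60 min and Hspb8 at 150 min averaged only 0.0372 and 0.13 CPM in acceptors, so these 2 calls rest on very few counts. In untreated cells they were at 1.05 ± 1.12 and 1.175 ± 1.377 CPM (SD).

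Across all 14 groups, Hspa1a and Hspa1b split the study into 2 levels. All 7 aSyn-carrying groups had higher means than all 7 groups given no aSyn, both for Hspa1a (10.6 to 16.9 against 3.04 to 5.91 CPM) and for Hspa1b (12.3 to 23.8 against 2.57 to 6.68 CPM). Untreated cells were the lowest of the 14 groups for both genes. Without pairing by experiment, the order within each level was not resolved, and paired differences are given further on. The means of neighbouring groups differed by less than the SD of at least 1 of them, as with Hspa1a in donors at 60 min (16.9 ± 11.8 CPM, n = 3) and in aSyn-treated cells (15.3 ± 5.43 CPM, n = 4). The exception was Hspa1b in untreated cells (2.57 ± 1.61 CPM, n = 4) and acceptors at 60 min (4.40 ± 1.74 CPM, n = 4). Group means of the other 8 genes differed at most 1.49-fold between the highest and the lowest group.

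Within experiments the split was complete in 3 of the 4. In experiments 2, 3 and 4 every aSyn-carrying value of Hspa1a, and also of Hspa1b, lay above every value from cells given none, which 1.23% of all genes showed. For the sum of the pair, the median was 21.6 against 11.4 CPM in experiment 2, 37.8 against 8.91 CPM in experiment 3 and 67.9 against 8.21 CPM in experiment 4. In experiment 1 the medians were 17.2 and 10.5 CPM and the ranges overlapped, 9.87 to 21.8 against 6.36 to 13.0 CPM. The ratio of the medians thus ran from 1.63 in experiment 1 to 8.27 in experiment 4. The share of the variance of log2 CPM that lay between groups was 63.8% for Hspa1a and 69.2% for Hspa1b. For Hspa8 (59.3%), Hsp90aa1 (66.2%), Hspd1 (50.9%), Hspe1 (45.15%), Hsph1 (40.0%) and Hsp90ab1 (30.2%) the larger share lay between experiments. For Dnajb1 (30.9%) and Bag3 (31.25%) it lay between groups. There were 14 groups but 4 experiments, so the shares are not on the same footing.

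Donors and acceptors of one co-culture were compared next, which asks whether the difference between cells with and without their own aSyn persisted after mixing. Only the acceptors were stained with the violet dye, so a difference due to aSyn cannot be told apart from one due to the dye. Hspa1b was higher in donors than in acceptors in all 21 same-numbered pairs (2.35% of all genes), Hspa8 in 20 of 21 (4.59% of all genes showed at least 20) and Hspa1a in 19 of 21. The labels do not say whether the libraries of one experiment and population came from separate cultures, so each experiment was reduced to its mean over the times. The mean donor minus acceptor difference of Hspa1b was 0.51, 0.80, 2.34 and 3.20 on the log2 scale in experiments 1 to 4 (3.28-fold on average). That of Hspa1a was 0.37, 0.92, 1.93 and 2.54 (2.71-fold), and that of Hspa8 was 0.37, 0.24, 0.27 and 0.47 (1.27-fold). All 3 genes, and also Dnajb1 (0.018, 0.21, 0.06 and 0.29), were higher in 4 of 4 experiments. For each of them the two-sided exact sign-flip test gives p = 0.125, the smallest that 4 experiments allow (0.312 after adjustment over the 10 genes). The share of all genes that were higher in 4 of 4 was not counted. The differences of the inducible pair varied widely between experiments, whereas those of Hspa8 were small and alike (SD 0.11).

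At 15 min Hspa1b stood at 8.32, 12.6, 21.1 and 50.8 CPM in donors and at 5.73, 6.06, 3.93 and 4.14 CPM in acceptors of experiments 1 to 4. All donors were above all acceptors, the gap being smallest in experiment 1. Hspa1b was the 1 gene of 10 called (log2 2.23, SE 0.56, edgeR adjusted p = 0.0375), where 0.888% of all genes were. That call was lost when any 1 experiment was left out (adjusted p between 0.0519 and 0.269). With replicate number as the block, 3 of 10 genes were called at 15 min: Hspa1b (adjusted p = 0.0075), Hspa8 (0.0138) and Hspa1a (0.0225). The block called 9.57% of all genes there.

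At the other times edgeR called 0 of 10 genes without the block, at 0 min (0.251% of all genes called), 30 min (0.805%), 60 min (0.418%), 150 min (0.167%) and 300 min (0.0304%). At an unadjusted p under 0.05 there were 2 of 10 genes at 0, 30, 150 and 300 min and 3 of 10 at 60 min, and DESeq2 called 1 at 60 min and 1 at 150 min. With the replicate block edgeR called Hspa1a at 0 min (adjusted p = 0.0496, 4.28% of all genes) and Hspa8 and Hspa1b at 30 min (0.00526 and 0.0312, 10.8%). At 60 min it called Hspa1b, Hspa1a and Hspa8 (0.00982, 0.0427 and 0.0428, 6.7%), and at 150 min Hspa1b and Hspa1a (0.0163 and 0.0474, 5.19%). At 300 min it called none (1.38%).

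All donor values of Hspa1a and of Hspa1b lay above all acceptor values at 0 min (8.63% of all genes), 15 min (3.12%) and 30 min (3.31%). At 60 min this held for Hspa1b and Hsp90ab1 (3.85%), at 150 min for none of the 10 (2.36%) and at 300 min for Hspd1 (3.15%). The Hspa1a values that broke the order were those of experiment 1, where donors were at 5.60 CPM at 60 min and 2.76 CPM at 150 min, against 7.22 and 4.40 CPM in its acceptors. At 300 min donors of experiment 1 were at 5.30 CPM, below acceptors of experiment 2 at 7.77 CPM. Hspa1b in donors of experiment 1 was at 7.11 CPM at 150 min and 7.06 CPM at 300 min. Acceptors of experiment 2 were then at 7.17 and 8.46 CPM.

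**Figure D3:**
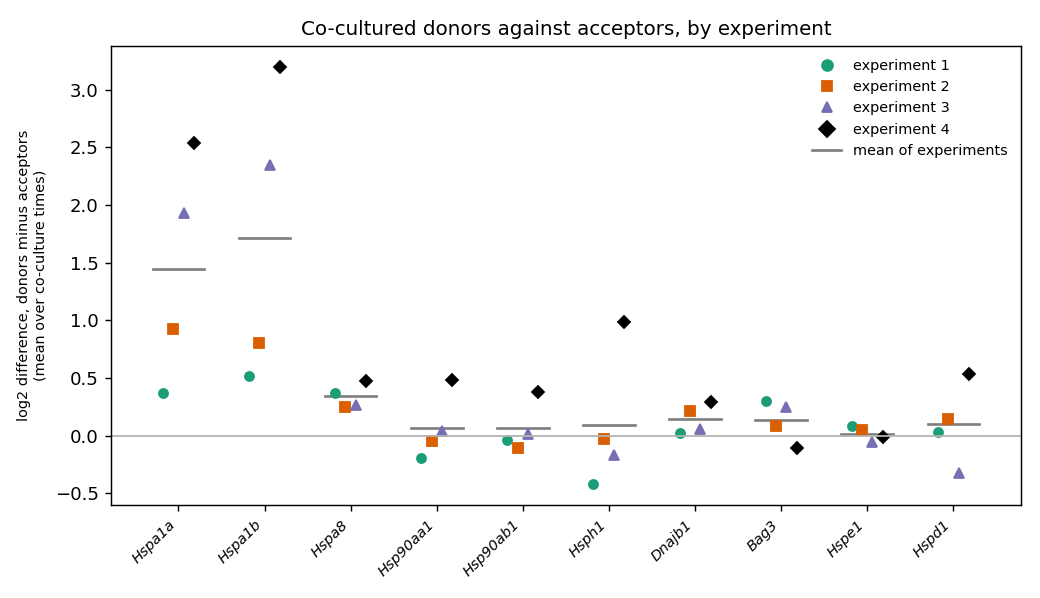
Mean log2 difference between co-cultured donors and acceptors over the co-culture times, one symbol per experiment and a bar for the mean of the 4 experiments. Hspa1a, Hspa1b, Hspa8 and Dnajb1 are above 0 in all 4 experiments, and experiment 4 is the highest for Hsp90aa1 (0.48), Hsp90ab1 (0.38), Hsph1 (0.98) and Hspd1 (0.54).

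Experiment 4 differed from the others in more than the inducible pair. In it 7 of 10 genes had every aSyn-carrying value above every other value (12.4% of all genes): the inducible pair, both HSP90 genes, Hsph1, Dnajb1 and Hspd1. For Hsph1 the 6 aSyn-carrying values ran from 28.7 to 45.5 CPM, with a median of 39.0, and the other 6 from 14.7 to 23.4 CPM, with a median of 18.9. In experiments 1 to 3 its ranges overlapped, and the aSyn-carrying median was the lower one each time (ratios 0.82, 0.919 and 0.883). Hsp90aa1 ran from 965 to 1539 CPM against 687 to 892 CPM in experiment 4, and its ratio of medians was 0.907, 1.03 and 1.01 in the others. Hsp90ab1 ran from 1578 to 2452 CPM against 1327 to 1493 CPM.

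The corresponding counts were 0 of 10 in experiment 1 (4.28% of all genes) and 2 of 10, the inducible pair, in experiments 2 (4.1%) and 3 (4.22%). Hspd1 went opposite ways: its aSyn-carrying values lay all above the others in experiment 4 (137 to 179 against 99.6 to 118 CPM) and all below them in experiment 3 (102 to 123 against 133 to 159 CPM), where 4.31% of all genes did the latter. Complete separation in experiment 4 but in no other was seen for 5 of the 10 genes and for 7.84% of all genes. Experiment 4 has no library at 0 min and 1 library in each other group, apart from the untreated pair, and the difference between experiments was not tested.

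Other measures moved with experiment 4. The summed microglial markers were at 2693 to 3190 CPM in its aSyn-carrying cells and 4942 to 5950 CPM in its other cells, against 7802 to 11670 and 7853 to 12970 CPM in experiments 1 to 3. The Rn45s share was high in both kinds of cell of experiment 4, with a median of 16.3% in aSyn-carrying cells and 20.3% in the others. Astrocyte markers summed to 138.6 CPM in the untreated and 29.3 CPM in the aSyn-treated cells of experiment 4, and to 77.6 and 16.7 CPM in those of experiment 3. In experiments 1 and 2 they were at 11.3 and 18.8 CPM in untreated and 13.9 and 11.2 CPM in aSyn-treated cells. Oligodendrocyte lineage markers summed to 201.1, 120.3, 597.4 and 210.7 CPM in untreated and 152.8, 120.8, 249.9 and 86.0 CPM in aSyn-treated cells of experiments 1 to 4. Their part in the results was not tested.

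**Figure D4:**
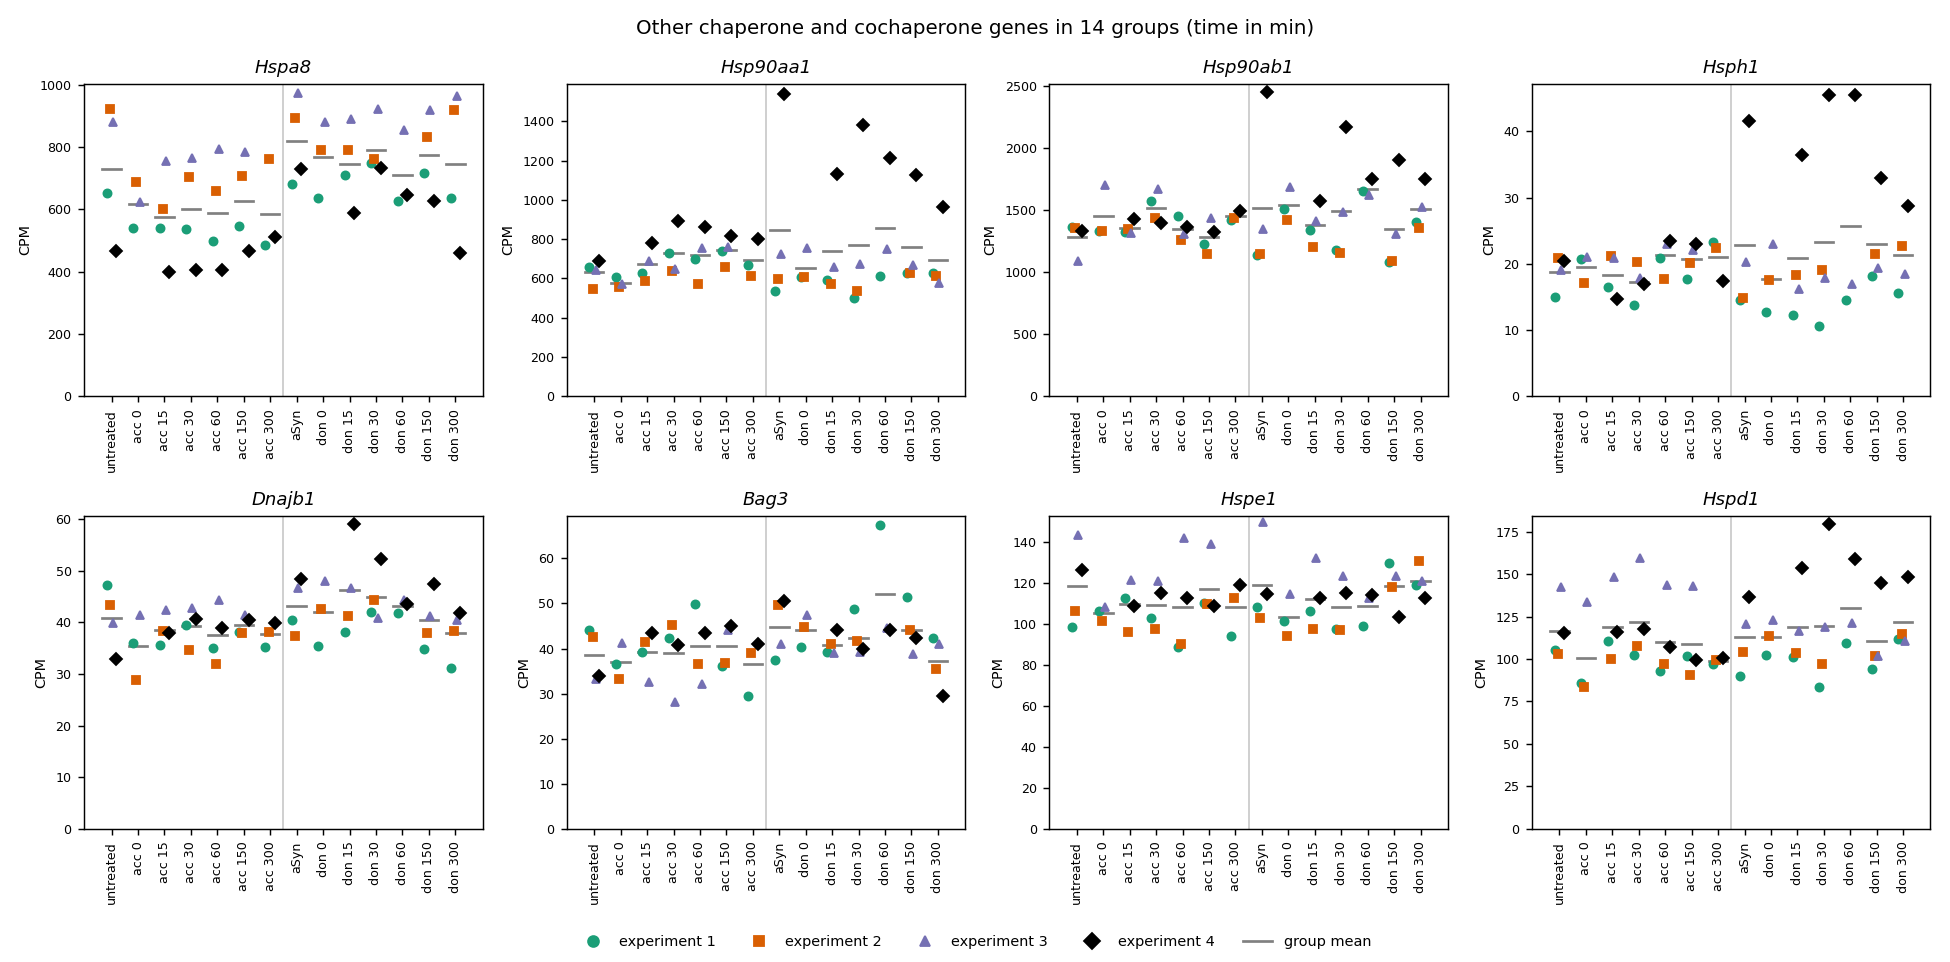
CPM of the 8 other genes in the 14 groups, drawn as for the inducible pair but on linear axes from 0. In experiment 4 (black diamonds) Hsph1 and Hsp90aa1 stand above all other experiments in every aSyn-carrying group in which it has a library, and Hspa8 is higher in experiment 3 than in experiment 4 in every group in which both have a library.

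Acceptors were compared with untreated cells, which asks whether cells without their own aSyn differed after being mixed with donors. None of the 10 genes passed at any time, with or without the block. Without it, edgeR called 0% of all genes at 0 and 15 min, 0.114% at 30 min, 0.0683% at 60 min, 0.137% at 150 min and 0% at 300 min. At an unadjusted p under 0.05 there was only Hspa1b, at 30 and 300 min, and DESeq2 called none. With the block the shares of all genes were 0.995%, 2.25%, 3.6%, 4%, 4.78% and 0.623%.

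Hspa1b was 0.90, 0.91, 1.20, 0.75, 1.11 and 1.35 higher in acceptors on the log2 scale at the 6 times, with standard errors of 0.56 to 0.60. Its acceptor value was above the untreated one of the same experiment in 22 of 22 pairs (1.2% of all genes), and those of Hspa1a and Hsp90aa1 were in 19 of 22 each (7.58% of all genes showed at least 19). Hspa8 went the other way, with differences between -0.22 and -0.35. Its acceptor value lay below the untreated one in every pair at 0, 15, 30 and 60 min. The share of all genes that did so was not counted, so this does not set Hspa8 apart from other genes. Its lowest edgeR adjusted p with the block was 0.0763, at 15 min. These 6 comparisons share the same untreated cells and are not independent of each other.

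No difference of the 10 genes over co-culture time passed the test. Against aSyn-treated cells, edgeR called 0 of 10 genes in donors at each of the 6 times, and 0 at an unadjusted p under 0.05. It called 0% of all genes at 0 to 150 min and 0.0304% at 300 min (0.304% with the block), and DESeq2 called none of the 10. Differences lay between -0.94 (Hspa1b at 0 min) and 0.22. Donors at 0 min have no library of experiment 4, in which Hspa1b of aSyn-treated cells was highest (44.5 CPM), so the lowest value partly reflects that gap. For the summed Hspa1a and Hspa1b the difference at 0 min was -0.63 without the block and -0.395 with it. An F test of change over the 6 times called 0 of 10 genes in donors (0.0607% of all genes; 0.577% with the block), in acceptors (0.00759%; 0.137%) and for the donor minus acceptor difference (0%; 0.0456%). None of the 10 had an unadjusted p under 0.05 in these F tests, and DESeq2 called none.

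Some differences went the same way in every experiment when paired by number. The share of all genes that did so was not counted, so these are not set apart from other genes. In donors at 300 min the sum of Hspa1a and Hspa1b was below that of aSyn-treated cells in 4 of 4 experiments, with a mean difference of -0.53 ± 0.20 on the log2 scale (SD, n = 4). It was also below that of donors at 15 min in 4 of 4, with -0.36 ± 0.24. In CPM it was at 17.2, 21.8, 35.4 and 75.6 at 15 min and at 12.4, 20.7, 29.5 and 48.8 at 300 min. Dnajb1 was likewise lower at 300 than at 15 min in 4 of 4, with a mean difference of -0.27 ± 0.16, and Hsp90ab1 was higher in 4 of 4, with 0.13 ± 0.05. Between 15 and 150 min in donors, Hspa8 rose in 4 of 4 (0.055 ± 0.036), while Dnajb1 (-0.18 ± 0.09) and Hspd1 (-0.10 ± 0.07) fell in 4 of 4. In acceptors Hsp90aa1 was higher at 150 than at 15 min in 4 of 4 experiments, with a mean difference of 0.15 ± 0.07. Between the same times in acceptors, Hspa8 also rose in 4 of 4 (0.13 ± 0.11) and Hspd1 fell in 4 of 4 (-0.13 ± 0.07). Pairs of times with fewer experiments are not listed. None of these genes passed the F test, and edgeR did not call Hspa1a or Hspa1b between donors at 300 min and aSyn-treated cells (adjusted p = 1 for each).

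The genes whose group means ran most like the summed Hspa1a and Hspa1b, over 14 groups and with the experiment means subtracted, were Cyb5a (Pearson's r = 0.988), Ptges (0.988), Il1rn (0.986), Psmb6 (0.986) and C3 (0.985). The 14 points fall into the same 2 levels as the pair and share libraries of 4 experiments, so that any gene with these levels scores high. Among the other members the value was highest for Hspa8 (0.776) and lowest for Hspe1 (0.032). For the summed Hspd1 and Hspe1 the most alike genes were Tnc (0.886), Vps41 (0.833), Vill (0.831), Ppp1r7 (0.831) and Ostf1 (0.812). Tnc and Vill averaged only 0.863 and 2.26 CPM, so they rest on few counts. edgeR called neither Hspd1 nor Hspe1 in any comparison, so the profile matched here was itself not resolved. These are the highest values among all genes tested, and no test was made of them.

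Counts of 2 genes are less certain than the rest because near-identical copies exist in the genome. For Hspa8, on chromosome 9 at chr9:40800984-40810087, 81.8% of the 50-base words in the last 500 transcript bases occurred in 11 other annotated genes. For Hspe1, at chr1:55088132-55091307, it was 53.2% in 6 others. For Hsp90ab1 it was 7.76% in 1 other gene, and for the other 7 genes it was 0%. How reads with several matches were counted is not given in the sources used here.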

How the data were processed

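Per the labels' protocols, RNA of 54 mouse microglia libraries was made into QuantSeq 3′ libraries and sequenced as single reads. The authors deposited raw counts per gene symbol, per the file headers. The submitters' processing notes name mm10 (GRCm38), STAR, Partek and DESeq2. The counting program, the annotation and the use of strand are not given in the sources used here. A deposited table of normalized values was not used.

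The 52 values (2 same-numbered untreated pairs summed) were tested with edgeR 4.0.16 (quasi-likelihood F test, TMM scaling, filterByExpr with a minimum count of 10) in 1 fit over the 14 groups without a block. The threshold was a Benjamini-Hochberg adjusted p of 0.05 over all 13169 genes tested. CPM used TMM-scaled library sizes, and log2 CPM a prior count of 2. The standard error (SE) of a log2 difference was derived from the edgeR F statistic, as the absolute difference divided by the square root of F. Replicate numbers in the titles are shared by all groups, and libraries with 1 number departed from the means of their groups in the same direction across genes (lowest correlation 0.199 over 69 pairs), so the fit with the replicate block is given beside results it moves. DESeq2 1.42.0, other size factors, no filter, unsummed untreated libraries, fits to the groups compared and leaving out each experiment were the alternatives. The edgeR step was checked on simulated counts drawn without differences between experiments, so the check does not cover that feature of the data. Library totals had a median of 13036175.5 counts, and the floor of 3 counts corresponds to 0.193 to 0.384 CPM. The labels state no molecular identifiers, so that floor covers counting error only.

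The 10 genes and the lists of other chaperones and markers were chosen with earlier results of these data known. All 10 genes were named in every comparison. Of the other chaperone lists, genes called in either fit were named, at most 5 per list and comparison by smallest p. The exception was the 7 ER chaperones called between aSyn-treated and untreated cells, which were all named. The 5 genes most like the Hspa1a and Hspa1b sum and the Hspd1 and Hspe1 sum were named too. Gene positions came from GENCODE vM21 (GRCm38) and promoter sequences from RefSeq (GRCm38.p6).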

Additional observations from a re-analysis of the deposited data

Results flagged for a closer look

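A value was singled out where, in a group of 4, its gap to the nearest other value, as a share of the range of the group, exceeded Dixon's 95% critical value. This held for 9 of 100 combinations of gene and group, where chance gives about 1 in 20, and 6 of the 9 were values of experiment 4. Hsp90aa1 in donors of experiment 4 was at 1130 CPM at 15 min, 1130 CPM at 150 min and 965 CPM at 300 min, while the other experiments lay at 574 to 656, 628 to 667 and 575 to 628 CPM. Hsp90ab1 in aSyn-treated cells of experiment 4 was at 2450 CPM, against 1140 to 1350 CPM in the others. Hspd1 in donors of experiment 4 was at 145 CPM at 150 min (others 94.2 to 102) and 148 CPM at 300 min (others 111 to 115). The remaining 3 values were from experiment 3. They were Hsp90ab1 in untreated cells at 1090 CPM (others 1330 to 1370), Hspa8 in donors at 30 min at 922 CPM (others 734 to 762) and Hspe1 in acceptors at 150 min at 139 CPM (others 109 to 110).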

How the results depend on the processing

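Of the 22 counts of genes called among the 10, all 22 stayed without the filter on low counts, with RLE size factors and with the untreated libraries not summed. The replicate block moved 5: between donors and acceptors it called 1 gene at 0 min, 3 at 15 min, 2 at 30 min, 3 at 60 min and 2 at 150 min. It changed no other call of the 10. In a fit to the groups compared, 1 gene was called for aSyn-treated against untreated cells and 0 for donors against acceptors at 15 min. DESeq2 called 2 at 15 min, 1 at 60 min and 1 at 150 min. Leaving out 1 experiment in turn gave 0 to 2 genes for aSyn-treated against untreated cells, 0 to 1 at 0 min, 0 at 15 min and 0 to 1 at 60 min. Over these 10 alternatives the log2 difference between aSyn-treated and untreated cells lay between 1.87 and 2.62 for Hspa1a and between 2.55 and 3.87 for Hspa1b, and it was 2.79 for their summed counts. Without experiment 4 small differences of that comparison changed sign. Leaving out 1 experiment in turn gave -0.0615 (without 4) to 0.41 for Hsp90ab1, -0.139 (without 4) to 0.517 for Hsph1 and -0.056 (without 4) to 0.209 for Dnajb1. For Hspe1 it gave -0.0198 (without 3) to 0.0636, with -0.0141 without experiment 1, and the sign was also lost with RLE size factors (-0.00456) and in DESeq2 (-0.00498). For Hspd1 it gave -0.142 to 0.037 (without 3), with 0.027 without experiment 1. None of these passed the test in any of these fits, and the cause was not tested. Over all genes the count called in that comparison was 329, against 618 with the untreated libraries not summed, 607 in DESeq2, 187 without experiment 1, 73 without experiment 3 and 37 in the fit to the 2 groups. Depth limits Hspa1a and Hspa1b most, since their untreated values rest on as few as 35 and 11 counts.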

Other observations

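A list of 19 immediate early genes, which cells switch on within minutes of a stimulus, was read beside the chaperones. Between aSyn-treated and untreated cells edgeR called 5 of 19 without the block, all higher, against 2.5% of all genes. Klf4 was at 39.9 ± 7.91 CPM in aSyn-treated and 5.45 ± 3.05 CPM in untreated cells (SD, n = 4; edgeR adjusted p = 0.000176), and Klf2, like Klf4 a transcription factor, at 131.5 ± 49.6 and 21.5 ± 9.24 CPM (0.000272). Fosb, Dusp1 and Ier3 were the other 3. With the block edgeR called 8 of 19, against 19.2% of all genes. Of these, 7 were higher and 1, Jun, was lower (log2 -0.53, edgeR adjusted p = 0.0383). In the F test over co-culture time in donors, where none of the 10 heat shock genes passed, edgeR called 4 of the 19 without the block (0.0607% of all genes) and 8 with it (0.577%). The 4 were Klf2 (adjusted p = 3.81e-05), Fosb (0.00538), Ier2 (0.0383) and Dusp1 (0.0473). In acceptors it called 0 of 19 without the block (0.00759% of all genes) and 2 with it (0.137%), Dusp1 and Fosb. Whether the lists differ was not tested.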
